A study of Mus musculus with 54 samples.

Results

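The 6 genes described here lie on mouse chromosome 11, of 16772 genes in the table, and are the 3 Nlrp1 copies (Nlrp1a, Nlrp1b and the pseudogene Nlrp1c-ps), Xaf1, Atp1b2 and 4933427D14Rik. They were chosen by 2 criteria, a position within 5 Mb of Trp53 and a difference between castrated TKO and castrated DKO tumours. The question put to them is whether strain variation linked to the Trp53 allele shows in these values. The values of that contrast are therefore given as a description with no test. RNA of mouse prostate tumour tissue was sequenced in bulk, in 54 libraries from 48 animals. Intact mice of 12 weeks comprised 4 DKO, 4 DKO_EE and 4 DKO_EP animals. Intact endstage mice comprised 3 DKO animals of 35 to 46 weeks, 8 DKO_EE animals of 28 to 42 weeks and 3 DKO_EP animals of 39 to 52 weeks. Mice castrated at 12 weeks and sampled at endstage comprised 4 DKO animals of 39 to 99 weeks, 5 DKO_EE animals of 35 to 59 weeks and 5 DKO_EP animals of 34 to 37 weeks. Castrated TKO mice received vehicle (4 animals of 15 to 19 weeks) or CPI1688, an Ezh2 inhibitor (4 animals of 18 to 19 weeks). DKO_EE and DKO_EP are DKO mice with a deletion of Ezh2. The labels do not spell out what EE and EP stand for, or how many Ezh2 alleles are deleted in each. In published mouse prostate models with these names, TKO lacks Trp53 in addition to the genes that DKO lacks, deleted by a Cre that a probasin promoter drives in prostate epithelium. The labels give neither the alleles nor the strain background. The stroma and the immune cells of such a host keep their genes.

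NLRP1 proteins are cytosolic sensors that assemble an inflammasome, a platform that activates caspase-1 and so leads to release of IL-1 family cytokines and lytic cell death. The mouse carries a cluster of Nlrp1 copies that vary between inbred strains, and Nlrp1b is known from mice for strain-dependent sensitivity to anthrax lethal factor. Xaf1 encodes XIAP-associated factor, an interferon-inducible protein that counteracts an inhibitor of apoptosis. Atp1b2 encodes the beta-2 subunit of the sodium-potassium pump, also known as the adhesion molecule on glia. 4933427D14Rik is the mouse gene with the RefSeq synonyms Kiaa0753 and MNR, and its human counterpart encodes a protein of centriolar satellites that acts in centriole duplication. Trp53 encodes the tumour suppressor p53.

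The libraries held 3687048 to 9741808 reads over the table. Trp53 itself was lower in all 8 TKO animals, with log2 values of 5.80 to 7.85. The 14 castrated DKO, DKO_EE and DKO_EP animals had values of 8.05 to 8.99. Of all genes, 0.0656% were lower in TKO than in these 14 animals with no overlap. Trp53 was not listed at 0 in any animal, and a count over the whole gene does not show which exons are deleted. The luminal epithelial marker Pbsn, the gene of probasin, was at 0 in every animal of 7 of the 11 groups. Neuroendocrine markers (6 genes) had group medians of 13.31 to 14.3 in endstage and TKO animals, with lowest values of 8.15 in a castrated DKO and 10.65 in a vehicle-treated TKO animal. Skeletal muscle markers reached 17.84 in the 12-week animals. The gene Lars2 took over 10% of the reads in 10 intact endstage libraries. All 8 TKO animals have identifiers that begin with T, the castrated DKO animals ones that begin with DKO, and the castrated DKO_EE and DKO_EP animals ones that begin with DKOE. TKO animals were also younger than every castrated animal of the other genotypes, so genotype, identifier series and age cannot be told apart among castrated animals.

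All 6 genes lie on one side of Trp53 (chromosome 11, 69580359 to 69591873, forward strand, GRCm38 with GENCODE M21). Atp1b2 (69599736 to 69605942, reverse strand) is the next gene of the table after Trp53, 7.9 kb away. The Nlrp1 cluster follows on the reverse strand, with Nlrp1a at 71092236 to 71144704, Nlrp1b at 71153102 to 71230733 and Nlrp1c-ps at 71242430 to 71285232, which is 1.5 to 1.65 Mb from Trp53. 4933427D14Rik (72153929 to 72207459, reverse strand) is 2.56 Mb and Xaf1 (72301629 to 72313733, forward strand) 2.71 Mb from Trp53. Nlrp1c-ps is annotated as a transcribed unprocessed pseudogene, and the other 5 genes as protein-coding. None overlaps another gene of the table.

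The Nlrp1 copies are similar but not identical, which bears on how reads can be assigned to them. Aligned transcripts were identical at 83.8% of 3662 positions between Nlrp1a and Nlrp1b, at 87.7% of 3402 between Nlrp1a and Nlrp1c-ps, and at 83.7% of 3406 between Nlrp1b and Nlrp1c-ps. Of all overlapping windows of 50 bases, 2.28% in the Nlrp1a transcript, 2.08% in Nlrp1b and 0.792% in Nlrp1c-ps had an exact match in another copy. These are shares of windows and not of the bases that matches cover. At 100 bases these shares were 0.0789%, 0.0711% and 0%. The read length is not given in the sources used here, so counts of the 3 copies are taken as largely, not wholly, separate. A stretch of 60 bases in the coding part of Nlrp1a and Nlrp1b, with the median number of differences (11) of all gap-free windows there, shows how they differ, with capitals where the 3 copies are not the same.
Nlrp1a: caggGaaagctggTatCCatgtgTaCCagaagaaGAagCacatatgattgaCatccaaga
Nlrp1b: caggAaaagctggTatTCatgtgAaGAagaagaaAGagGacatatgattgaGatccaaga
Nlrp1c-ps: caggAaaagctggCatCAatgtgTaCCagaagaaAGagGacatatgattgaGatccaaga

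The promoters of Nlrp1a and Nlrp1b are shown because both genes were low in castrated animals while Nlrp1a was listed at 0 in all 8 TKO animals and Nlrp1b in 1. They come from RefSeq (GRCm38.p6) and span 250 bases before to 50 after each start, on the reverse strand at chr11:71144655-71144954 for Nlrp1a and chr11:71230684-71230983 for Nlrp1b. The windows aligned over 282 bases with 89.7% identity. Capitals mark the bases that differ or have no aligned partner. RefSeq's table held promoters for 4 of the 6 genes.
Nlrp1a promoter: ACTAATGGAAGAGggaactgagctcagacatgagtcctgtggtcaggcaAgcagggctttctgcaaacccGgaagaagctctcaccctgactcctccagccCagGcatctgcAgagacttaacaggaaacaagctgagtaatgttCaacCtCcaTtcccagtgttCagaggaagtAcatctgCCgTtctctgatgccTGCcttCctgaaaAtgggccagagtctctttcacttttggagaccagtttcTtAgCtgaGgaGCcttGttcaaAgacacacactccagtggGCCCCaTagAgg
Nlrp1b promoter: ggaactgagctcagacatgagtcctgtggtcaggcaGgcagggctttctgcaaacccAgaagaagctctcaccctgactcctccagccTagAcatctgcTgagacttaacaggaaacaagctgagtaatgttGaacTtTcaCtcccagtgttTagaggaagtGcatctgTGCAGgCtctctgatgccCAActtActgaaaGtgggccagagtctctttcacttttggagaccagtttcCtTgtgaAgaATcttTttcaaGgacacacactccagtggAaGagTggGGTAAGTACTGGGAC

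**Figure D1:**
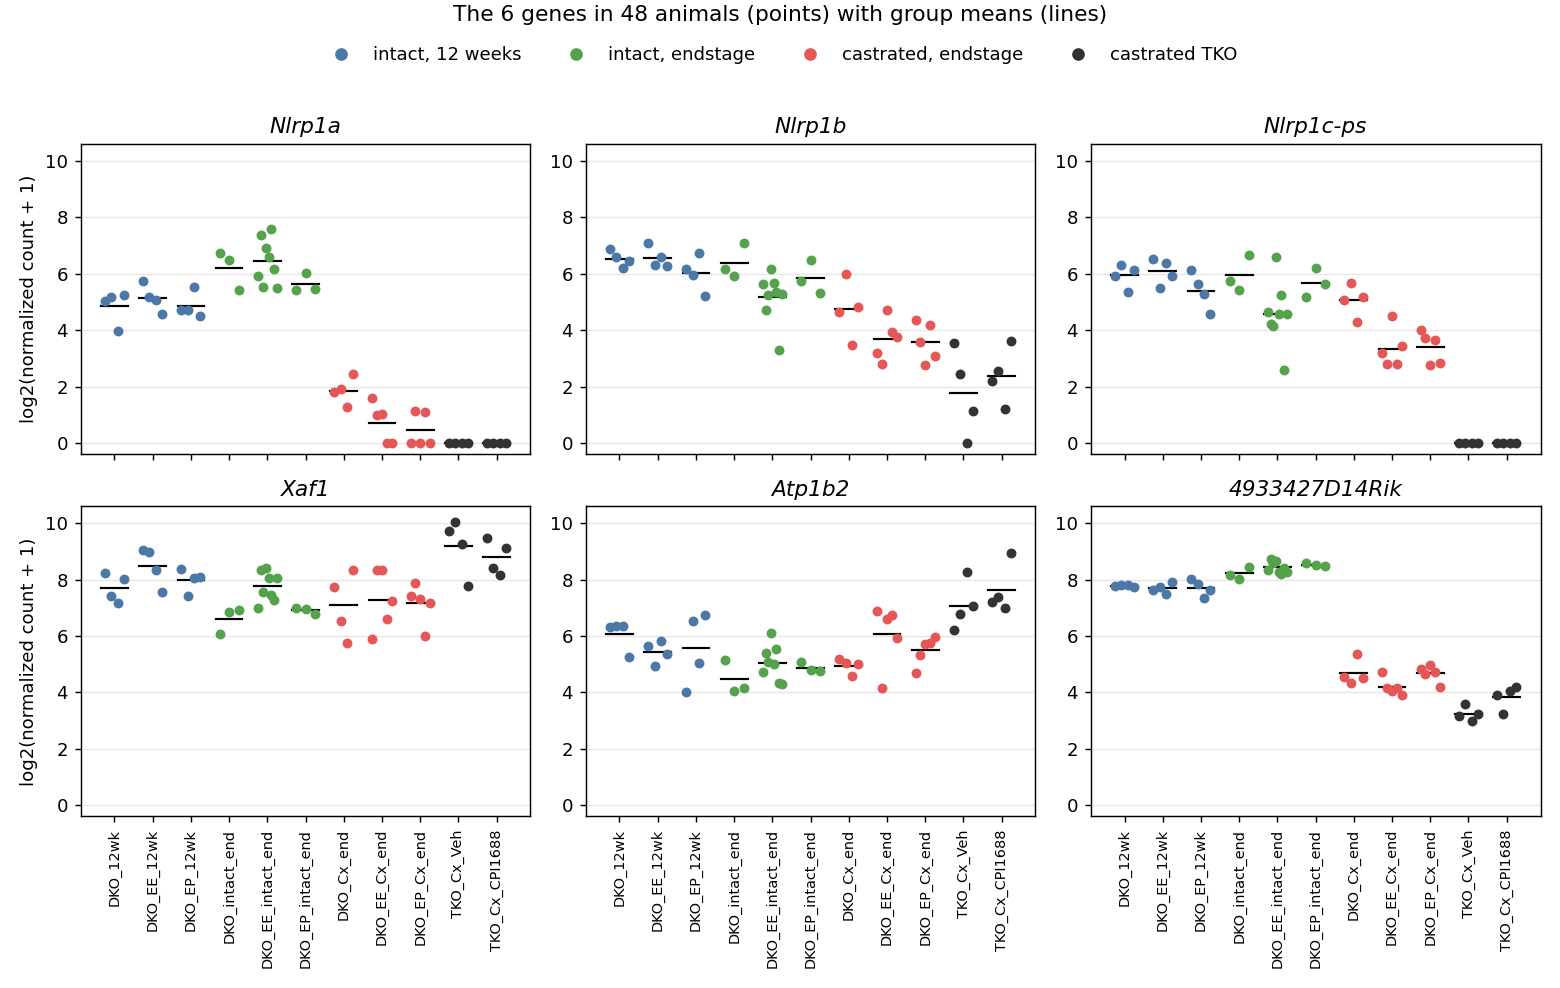
Log2(normalized count + 1) of the 6 genes (vertical axis) in each of the 48 animals (points), by group (horizontal axis), with the group mean as a line and no error bar. Nlrp1c-ps sits at 0 in all 8 TKO animals, and Nlrp1a and 4933427D14Rik are lower in every castrated animal than in every intact one.

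Nlrp1c-ps was listed at 0 in all 8 TKO animals and above 0 in all 40 others. The log2 values in castrated DKO animals 1 to 4 were 5.07, 5.66, 4.30 and 5.19. In castrated DKO_EE animals 1 to 5 they were 3.18, 2.81, 4.52, 2.81 and 3.43, and in castrated DKO_EP animals 1 to 5 they were 4.02, 3.73, 2.77, 3.64 and 2.84. TKO thus did not overlap with the other castrated animals, which had 5 to 36 reads each. Of all 16772 genes, Nlrp1c-ps was the only 1 (0.00596%) at 0 in all TKO animals and above 0 in all 14 other castrated animals. The pattern includes animals of the contrast that chose the gene, so it is a description and nothing is read from it. Lower values in TKO, with no overlap with these 14 animals, were seen in 0.0656% of all genes. In all, 260 genes were at 0 in the 8 TKO animals. Zeros can have other sources in this table: Atp5o, a gene of mitochondrial ATP synthase that every cell uses, was listed at 0 in all castrated animals of every genotype. For that reason no fold is given against a group in which a copy is listed at 0 in every animal.

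In intact animals the Nlrp1c-ps values were 5.94, 6.32, 5.37 and 6.15 in 12-week DKO animals 1 to 4. They were 6.53, 5.51, 6.39 and 5.92 in 12-week DKO_EE and 6.13, 5.63, 5.29 and 4.57 in 12-week DKO_EP. At intact endstage the values were 5.74, 5.43 and 6.66 in DKO, and 5.19, 6.22 and 5.64 in DKO_EP, while the 8 DKO_EE animals ran from 2.58 over a median of 4.56 to 6.59. Group means ran in the order DKO_EE at 12 weeks (6.09 ± 0.46, SD, n = 4), DKO at 12 weeks (5.94 ± 0.42, n = 4), DKO at intact endstage (5.94 ± 0.64, n = 3), DKO_EP at intact endstage (5.68 ± 0.52, n = 3), DKO_EP at 12 weeks (5.4 ± 0.66, n = 4), castrated DKO (5.05 ± 0.56, n = 4), DKO_EE at intact endstage (4.57 ± 1.12, n = 8), castrated DKO_EP (3.40 ± 0.56, n = 5) and castrated DKO_EE (3.35 ± 0.71, n = 5), with TKO last. The only neighbours in that order whose values did not overlap were castrated DKO_EE and TKO.

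Further comparisons set the CPI1688-treated TKO animals against castrated animals that the choice of genes did not use. The labels of those castrated animals name no inhibitor, and no fit set vehicle-treated TKO against them. Inhibitor and genotype therefore cannot be told apart in these comparisons, here and below. The TKO animals may be among those the choice used, so calls in these comparisons are not independent of the choice. By limma with Benjamini-Hochberg adjustment over all genes, Nlrp1c-ps passed against castrated DKO_EE (adjusted p = 0.000185, 0 in 4 of 4 animals against 2.81 to 4.52 in 5 of 5). It also passed against castrated DKO_EP (adjusted p = 0.000111, 0 in 4 of 4 against 2.77 to 4.02 in 5 of 5). In the first comparison 1 of the 6 genes was called with 6.63% of all genes, and in the second 2 of the 6 with 1.98%. Within castrated DKO genotypes, Nlrp1c-ps had a log2 difference of -1.71, DKO_EE minus DKO (SE 0.38), and of -1.66, DKO_EP minus DKO (SE 0.38). The castrated DKO animals are those the choice of genes used, so both are given as a description. In the first, 1 of the 6 and 3.67% of all genes were called, and in the second none of the 6 and 0.018%, from which nothing is read.

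Nlrp1a, the copy nearest to Trp53, was also listed at 0 in all 8 TKO animals. In castrated DKO animals 1 to 4 the log2 values were 1.81, 1.91, 1.28 and 2.44, which correspond to 1 to 4 reads. In castrated DKO_EE animals they were 1.59, 1, 1.03, 0 and 0, and in castrated DKO_EP animals 0, 1.15, 0, 1.10 and 0. TKO thus did not overlap with castrated DKO, in the comparison that chose the genes, a pattern of lower values that 0.638% of all genes showed. TKO shared the value 0 with 5 of the 10 castrated DKO_EE and DKO_EP animals. At this depth, therefore, no difference from those genotypes was detectable. Over all 14 castrated animals of the 3 DKO genotypes Nlrp1a had 15 reads in total, against 205 for Nlrp1b and 195 for Nlrp1c-ps.

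In intact animals Nlrp1a was readily detected. The values were 5.05, 5.18, 3.98 and 5.26 in 12-week DKO animals, 5.74, 5.17, 5.06 and 4.57 in 12-week DKO_EE and 4.73, 4.72, 5.54 and 4.50 in 12-week DKO_EP. At intact endstage they were 6.73, 6.49 and 5.43 in DKO and 5.41, 6.04 and 5.46 in DKO_EP, and the DKO_EE animals ran from 5.49 over 6.37 to 7.6. Every intact animal was above every castrated one. Of all genes, 1.72% were lower in castrated DKO, DKO_EE and DKO_EP than in all intact animals with no overlap. The means ran from DKO_EE (6.44 ± 0.80, SD, n = 8), DKO (6.21 ± 0.69, n = 3) and DKO_EP (5.64 ± 0.35, n = 3) at intact endstage through DKO_EE (5.14 ± 0.48), DKO (4.87 ± 0.60) and DKO_EP (4.87 ± 0.46) at 12 weeks (n = 4 each) to castrated DKO (1.86 ± 0.47, n = 4). Castrated DKO_EE and DKO_EP, with animals at 0, had medians of 1 and 0. All 12-week animals were above castrated DKO, and the other neighbours in this order overlapped.

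Nlrp1b, the functional copy in strains that respond to lethal factor, was low but not absent in TKO. Vehicle-treated TKO animals 1 to 4 had log2 values of 3.56, 2.43, 0 and 1.14, and CPI1688-treated animals 2.18, 2.55, 1.2 and 3.61. Castrated DKO animals had 4.64, 6.01, 3.47 and 4.84, castrated DKO_EE animals 3.18, 2.81, 4.71, 3.95 and 3.76, and castrated DKO_EP animals 4.35, 3.59, 2.77, 4.19 and 3.07. TKO therefore overlapped with each of these groups, at 0 to 9 reads in TKO and 5 to 46 in the others. The contrast that chose the genes had a log2 difference of -2.96 (SE 0.71) for vehicle and -2.35 (SE 0.71) for CPI1688 against castrated DKO. Against castrated DKO_EE the difference with CPI1688 was -1.29 (SE 0.67, adjusted p = 0.267) and against castrated DKO_EP -1.21 (SE 0.67, adjusted p = 0.369), and neither passed by limma.

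The intact values of Nlrp1b were 6.87, 6.61, 6.21 and 6.45 in 12-week DKO, 7.08, 6.30, 6.59 and 6.29 in 12-week DKO_EE and 6.16, 5.96, 6.73 and 5.21 in 12-week DKO_EP. At intact endstage they were 6.16, 5.92 and 7.11 in DKO and 5.75, 6.50 and 5.33 in DKO_EP, and the DKO_EE animals ran from 3.28 over 5.33 to 6.18. The order of the means was DKO_EE (6.56 ± 0.37, SD) and DKO (6.53 ± 0.28) at 12 weeks (n = 4 each), DKO at intact endstage (6.39 ± 0.63, n = 3), DKO_EP at 12 weeks (6.01 ± 0.63, n = 4), DKO_EP (5.86 ± 0.59, n = 3) and DKO_EE (5.17 ± 0.87, n = 8) at intact endstage, castrated DKO (4.74 ± 1.04, n = 4), DKO_EE (3.68 ± 0.73, n = 5) and DKO_EP (3.59 ± 0.69, n = 5), and TKO with CPI1688 (2.39 ± 0.99, n = 4) or vehicle (median 1.78, 1 animal at 0). All neighbours in this order overlapped.

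Nlrp1b and Nlrp1c-ps varied together. Across the 48 animals, with each value centred on its group mean, their Pearson correlation was 0.641, which is a description, since the points share libraries and the TKO animals add no spread in Nlrp1c-ps. The correlation of Nlrp1a with Nlrp1b was 0.136 and with Nlrp1c-ps 0.315. Nlrp1b minus Nlrp1c-ps lay between -0.83 and 1.14 on the log2 scale in the 14 castrated animals of the DKO genotypes and between -0.41 and 1.44 in the intact animals. In the TKO animals Nlrp1b had 30 reads in total and Nlrp1c-ps 0.

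**Figure D2:**
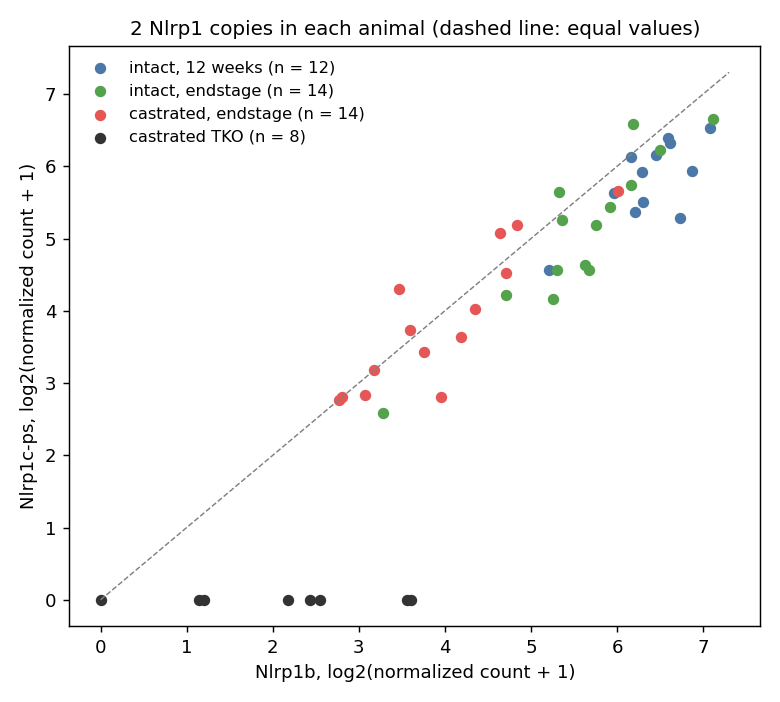
Log2(normalized count + 1) of Nlrp1b (horizontal axis) and of Nlrp1c-ps (vertical axis) in each animal, with colours for the setting and a dashed line of equal values. The 8 TKO animals lie along the bottom at 0, with Nlrp1b values of 0 to 3.61, while the other 40 animals follow the line.

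The genes most like each copy were found in the same centred values. For Nlrp1b they were Fcgrt, the neonatal Fc receptor (r = 0.796), Hfe, a regulator of iron uptake (0.791), and the complement protease gene C1s1 (0.783). For Nlrp1c-ps they were the DNA sensor Tlr9 (0.773), the proton-sensing receptor Gpr65 (0.744) and the lectin receptor Clec4a3 (0.718). For Nlrp1a the highest values were lower, with the augmin subunit Haus7 (0.508), Fign (0.435) and Chac1 (0.431). None of these genes is on chromosome 11. Macrophage markers (6 genes, none at 0 throughout a group) had summed levels of 10.55 to 13.29 in TKO and of 9.68 to 12.00 in the other castrated animals and the ranges overlapped. T and NK cell markers (4 genes) had 1.76 to 4.66 in TKO, 3.47 to 6.63 in castrated DKO and 1.59 to 3.90 in castrated DKO_EE and DKO_EP. Their part in the Nlrp1 values was not tested. In bulk tissue, fewer cells of a type and less RNA per cell cannot be told apart.

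Other genes of inflammasome assembly and output were counted from a list of 25, of which 24 are in the table. In CPI1688-treated TKO against castrated DKO_EP, 0 rose and 2 fell, namely Naip5 (log2 difference -2.44, SE 0.49, adjusted p = 0.0187, limma) and Naip6 (-2.13, SE 0.45, adjusted p = 0.0219), and the list's median difference was 0.07 beside 0.02 over all genes. The same pair fell against castrated DKO_EE, Naip5 by -2.49 (SE 0.49, adjusted p = 0.00675) and Naip6 by -2.26 (SE 0.45, adjusted p = 0.00681), with a list median of 0.20. Naip5 and Naip6 encode neighbouring sensors of bacterial flagellin and are near-identical copies, so their counts are uncertain one against the other. Of all genes 1.98% and 6.63% were called in these comparisons, which share the TKO animals. In castrated DKO_EE against castrated DKO, with 3.67% of all genes called, 2 other members fell, Nlrp6 (-3.18, SE 0.79, adjusted p = 0.03) and Gsdmd (-2.73, SE 0.72, adjusted p = 0.0404), the latter encoding the pore protein of pyroptosis.

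Xaf1 had its highest values in TKO. Vehicle-treated TKO animals had log2 values of 9.72, 10.05, 9.28 and 7.78, and CPI1688-treated animals 9.49, 8.43, 8.16 and 9.13. Castrated DKO animals had 7.74, 6.52, 5.76 and 8.34, castrated DKO_EE animals 5.89, 8.36, 8.34, 6.61 and 7.26, and castrated DKO_EP animals 7.43, 7.90, 7.31, 6 and 7.18. Of the TKO animals 5 were above 9 and no other castrated animal was above 8.36, but the ranges overlapped. The contrast that chose the genes had log2 differences of 2.12 (SE 0.62) for vehicle and 1.71 (SE 0.62) for CPI1688. Against castrated DKO_EE the difference with CPI1688 was 1.51 (SE 0.59, adjusted p = 0.129) and against castrated DKO_EP 1.64 (SE 0.59, adjusted p = 0.148), and neither passed.

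In intact animals Xaf1 was at 8.23, 7.42, 7.18 and 8.01 in 12-week DKO, 9.05, 8.99, 8.36 and 7.58 in 12-week DKO_EE and 8.39, 7.42, 8.07 and 8.11 in 12-week DKO_EP. At intact endstage it was at 6.06, 6.84 and 6.93 in DKO and 7, 6.96 and 6.78 in DKO_EP, and the DKO_EE animals ran from 7.01 over 7.81 to 8.40. DKO and DKO_EE did not overlap there, but the share of all genes without overlap was not counted, so nothing is read from it. The log2 difference of 1.17 (SE 0.30, adjusted p = 0.0666, limma) did not pass, in a comparison where 0 of the 6 and 1.66% of all genes were called. With array weights it passed (1.21, adjusted p = 0.0141). The order of the means was TKO with vehicle (9.21 ± 1.01, SD, n = 4) and CPI1688 (8.80 ± 0.61, n = 4), DKO_EE (8.50 ± 0.69), DKO_EP (8 ± 0.41) at 12 weeks (n = 4 each), DKO_EE at intact endstage (7.78 ± 0.51, n = 8), DKO at 12 weeks (7.71 ± 0.49, n = 4), castrated DKO_EE (7.29 ± 1.08, n = 5), DKO_EP (7.16 ± 0.70, n = 5) and DKO (7.09 ± 1.17, n = 4), and DKO_EP (6.91 ± 0.12, n = 3) and DKO (6.61 ± 0.47, n = 3) at intact endstage. All neighbours in this order overlapped.

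Xaf1 varied with interferon-inducible genes from animal to animal. Its most similar genes in centred values were Rtp4 (r = 0.941), the helicase Ddx60 (0.922) and the transcription factor Irf7 (0.887), none on chromosome 11 and all known as interferon-inducible. In the vehicle contrast that chose the genes their log2 differences were 0.04 (SE 0.48), 0.20 (SE 0.76) and -0.17 (SE 0.75). Against castrated DKO_EP the CPI1688 differences were -0.54 for Rtp4 (SE 0.45, adjusted p = 0.59), -0.44 for Ddx60 (SE 0.72, adjusted p = 0.821) and -0.03 for Irf7 (SE 0.71, adjusted p = 0.998). Of the interferon response list (29 genes, all in the table, Xaf1 not among them) 0 passed in either direction against castrated DKO_EE or DKO_EP, with medians of -0.38 and -0.34 beside 0.02 over all genes in both.

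In DKO_EE against DKO at intact endstage, 9 of the 29 interferon genes rose and 0 fell, with a median of 0.92 beside -0.03 over all genes. They included Oas2, an activator of RNase L (2.13, SE 0.39, adjusted p = 0.0172), Oasl2 (1.31, SE 0.24, adjusted p = 0.0172) and Gbp3 (1.23, SE 0.25, adjusted p = 0.0248). Xaf1 had the value given above in that comparison. At 12 weeks 0 passed in DKO_EE (median 0.89) and 0 in DKO_EP (median 0.34). Lars2 held over 10% of the reads in some of the DKO_EE libraries and in none of the DKO libraries of that comparison, and its part was not tested.

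The promoter of Xaf1 is shown because of this likeness to interferon-inducible genes (RefSeq, GRCm38.p6, chr11:72301379-72301678, forward strand). The motif GAAANNGAAA, a core of interferon-stimulated response elements, was searched on both strands and had no match in the windows of Xaf1, Nlrp1a, Nlrp1b or 4933427D14Rik, while 3.44% of 32851 promoter windows held it. A form with 1 base between the repeats, GAAANGAAA, was searched after the window had been read: it had 1 match in Xaf1, 10 bases after the start, none in the other 3, and was in 3.17% of all windows. Capitals mark that match, which is a description of letters and not a shown binding site.
Xaf1 promoter: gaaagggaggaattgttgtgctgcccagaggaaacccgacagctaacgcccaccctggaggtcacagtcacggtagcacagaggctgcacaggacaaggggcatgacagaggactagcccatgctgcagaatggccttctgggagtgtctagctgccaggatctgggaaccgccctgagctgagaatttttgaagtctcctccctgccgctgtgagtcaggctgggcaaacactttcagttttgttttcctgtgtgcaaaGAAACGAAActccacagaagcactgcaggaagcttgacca

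Atp1b2, the gene beside Trp53, had its highest group means in TKO. Vehicle-treated TKO animals had log2 values of 6.20, 6.80, 8.27 and 7.05, and CPI1688-treated animals 7.22, 7.40, 6.98 and 8.94. Castrated DKO animals had 5.18, 5.03, 4.58 and 5, castrated DKO_EE animals 6.90, 4.17, 6.6, 6.74 and 5.93, and castrated DKO_EP animals 4.70, 5.33, 5.73, 5.75 and 5.96. All TKO animals were above all castrated DKO and DKO_EP animals, whereas 3 of the 5 castrated DKO_EE animals lay within the TKO range. Against castrated DKO alone, 110 of 16772 genes were higher in TKO with no overlap. The contrast that chose the genes had log2 differences of 2.13 (SE 0.55) for vehicle and 2.69 (SE 0.55) for CPI1688. Against castrated DKO_EP the difference with CPI1688 was 2.14 (SE 0.52, adjusted p = 0.0404, limma) and passed, beside 1.98% of all genes called. The choice of genes may have used these TKO animals, so the call is not independent of it. That call was lost without any 1 of 8 of the 9 animals, at adjusted p up to 0.204 (without CPI1688-treated animal 4), and with age as a covariate (adjusted p = 0.0814), quantile normalization (0.0599) and limma-voom (0.076). Against castrated DKO_EE it was 1.56 (SE 0.52, adjusted p = 0.0736) and did not pass.

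Intact values of Atp1b2 were 6.33, 6.35, 6.35 and 5.26 in 12-week DKO, 5.65, 4.94, 5.83 and 5.37 in 12-week DKO_EE and 4.03, 6.52, 5.03 and 6.74 in 12-week DKO_EP. At intact endstage they were 5.16, 4.05 and 4.17 in DKO and 5.09, 4.79 and 4.77 in DKO_EP, and the DKO_EE animals ran from 4.30 over 5.04 to 6.12. The order of the means was TKO with CPI1688 (7.63 ± 0.89, SD, n = 4) and vehicle (7.08 ± 0.87, n = 4), castrated DKO_EE (6.07 ± 1.12, n = 5), DKO at 12 weeks (6.07 ± 0.54, n = 4), DKO_EP at 12 weeks (5.58 ± 1.28, n = 4), castrated DKO_EP (5.49 ± 0.50, n = 5), DKO_EE at 12 weeks (5.45 ± 0.39, n = 4), DKO_EE at intact endstage (5.06 ± 0.62, n = 8), castrated DKO (4.95 ± 0.25, n = 4), and DKO_EP (4.88 ± 0.18, n = 3) and DKO (4.46 ± 0.61, n = 3) at intact endstage. All neighbours in this order overlapped.

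The genes most like Atp1b2 were the zinc finger gene Zfp551 (r = 0.753), the potassium channel gene Kcna2 (0.653) and the neuronal gene Astn1 (0.64). Glial markers (5 genes, with Sox10 at 0 throughout CPI1688-treated TKO) had summed levels of 9.05 to 10.16 in TKO and 9.59 to 11.25 in the other castrated animals, and neuroendocrine markers 10.65 to 14.49 and 8.15 to 14.55 and their ranges overlapped. Endothelial markers (3 genes) had 9.30 to 12.38 in TKO and 7.96 to 10.65 in the other castrated animals, and fibroblast markers (4 genes) 11.92 to 17.15 and 10.99 to 13.82, and their part in the Atp1b2 values was not tested. Of 16 other genes of the sodium pump and its regulators, all in the table, 0 passed in CPI1688-treated TKO against castrated DKO_EP (median 0.29). Against castrated DKO_EE 0 rose and 1 fell, Atp1b1, the beta-1 subunit (-1.31, SE 0.31, adjusted p = 0.017, median 0.23), beside 6.63% of all genes called.

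4933427D14Rik was lowest in vehicle-treated TKO. Vehicle-treated TKO animals had log2 values of 3.18, 3.58, 2.97 and 3.23, and CPI1688-treated animals 3.91, 3.25, 4.06 and 4.2. Castrated DKO animals had 4.56, 4.34, 5.37 and 4.53, castrated DKO_EE animals 4.71, 4.17, 4.06, 4.16 and 3.90, and castrated DKO_EP animals 4.84, 4.67, 4.96, 4.71 and 4.19. All TKO animals were below all castrated DKO animals, at 6 to 14 against 14 to 28 reads, and overlapped with the other 2 genotypes. Of all genes, 0.638% were lower in TKO than in castrated DKO with no overlap. The contrast that chose the genes had log2 differences of -1.46 (SE 0.32) for vehicle and -0.84 (SE 0.32) for CPI1688. With CPI1688 the differences of -0.34 against castrated DKO_EE (SE 0.30, adjusted p = 0.556) and -0.82 against castrated DKO_EP (SE 0.30, adjusted p = 0.157) did not pass.

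In intact animals 4933427D14Rik was at 7.76, 7.83, 7.80 and 7.75 in 12-week DKO, 7.65, 7.75, 7.49 and 7.92 in 12-week DKO_EE and 8.04, 7.86, 7.36 and 7.63 in 12-week DKO_EP. At intact endstage it was at 8.18, 8.03 and 8.46 in DKO and 8.58, 8.53 and 8.50 in DKO_EP, and the DKO_EE animals ran from 8.21 over 8.38 to 8.73. The means of intact endstage (DKO_EP 8.54 ± 0.04, n = 3, DKO_EE 8.44 ± 0.20, n = 8, DKO 8.22 ± 0.22, n = 3, SD) were followed by those of 12 weeks (DKO 7.78 ± 0.04, DKO_EP 7.72 ± 0.30, DKO_EE 7.70 ± 0.18, n = 4 each), castration (DKO 4.70 ± 0.45, n = 4, DKO_EP 4.68 ± 0.30, n = 5, DKO_EE 4.2 ± 0.30, n = 5) and TKO (CPI1688 3.86 ± 0.42, vehicle 3.24 ± 0.25, n = 4 each). Neighbours overlapped except between intact endstage DKO and 12-week DKO and between 12-week DKO_EE and castrated DKO. The share of all genes without overlap between these single groups was not counted. Over all animals of the DKO genotypes, 16.7% of genes separated intact endstage from 12 weeks and 2.89% castrated from intact.

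The likest genes to 4933427D14Rik were Pcf11, which acts in termination of transcription (r = 0.561), the SUMO ligase gene Pias1 (0.549) and Mettl6 (0.535). Of 12 genes for centriolar satellites and centriole duplication, 0 passed in CPI1688-treated TKO against castrated DKO_EP (median -0.24) and 1 fell against castrated DKO_EE, Cep63 (-0.93, SE 0.24, adjusted p = 0.0277, median -0.28), beside 1.98% and 6.63% of all genes called.

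None of the 6 genes passed between CPI1688 and vehicle within castrated TKO. The log2 differences, CPI1688 minus vehicle, were 0.61 for Nlrp1b (SE 0.71), -0.41 for Xaf1 (SE 0.62), 0.55 for Atp1b2 (SE 0.55) and 0.62 for 4933427D14Rik (SE 0.32), each with adjusted p = 1 by limma, and both Nlrp1a and Nlrp1c-ps were listed at 0 throughout. Over all genes 0% were called at this size, with 477 at an unadjusted p under 0.05.

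The stretch around Trp53 holds 171 genes of the table within 5 Mb. In the contrast that chose the genes, with vehicle, 1 of the 6 and 0.168% of all 16635 tested genes passed the threshold, and with CPI1688 3 of the 6 and 1.36%, from which nothing is read. Among the 164 genes of the stretch left after the 6 and Trp53, 0 passed in either contrast. Against castrated DKO_EP 1 of these 164 passed (0.61%), Gas7 (2.04, SE 0.46, adjusted p = 0.029), and against castrated DKO_EE 8 (4.88%), beside the shares of all genes given above. The genes next to the 6 had log2 differences in the vehicle contrast of 0.44 for Sat2, -0.23 for 6330403K07Rik, 0.51 for Wscd1, 0.20 for Pitpnm3, -0.02 for Txndc17, 1.14 for Slc13a5 and 0.04 for Fbxo39. Their SEs ran from 0.22 for Txndc17 to 1.44 for Pitpnm3. The 10 further genes of the stretch with the smallest adjusted p there (0.308 to 0.639, limma) did not pass. They had these values: Gas7 1.56 (SE 0.48), the endothelial exchange factor gene Arhgef15 2.10 (SE 0.68), the lipoxygenase genes Alox12e -3.23 (SE 1.12) and Alox15 -2.17 (SE 0.99), Bcl6b 1.68 (SE 0.64), the calcium pump gene Atp2a3 2.87 (SE 1.11), the dynein gene Dnah2 1.52 (SE 0.68) and Pirt, known from sensory neurons, 3.51 (SE 1.62). Dhx33 (0.30, SE 0.13) and 2810408A11Rik (0.77, SE 0.37) were smaller.

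**Figure D3:**
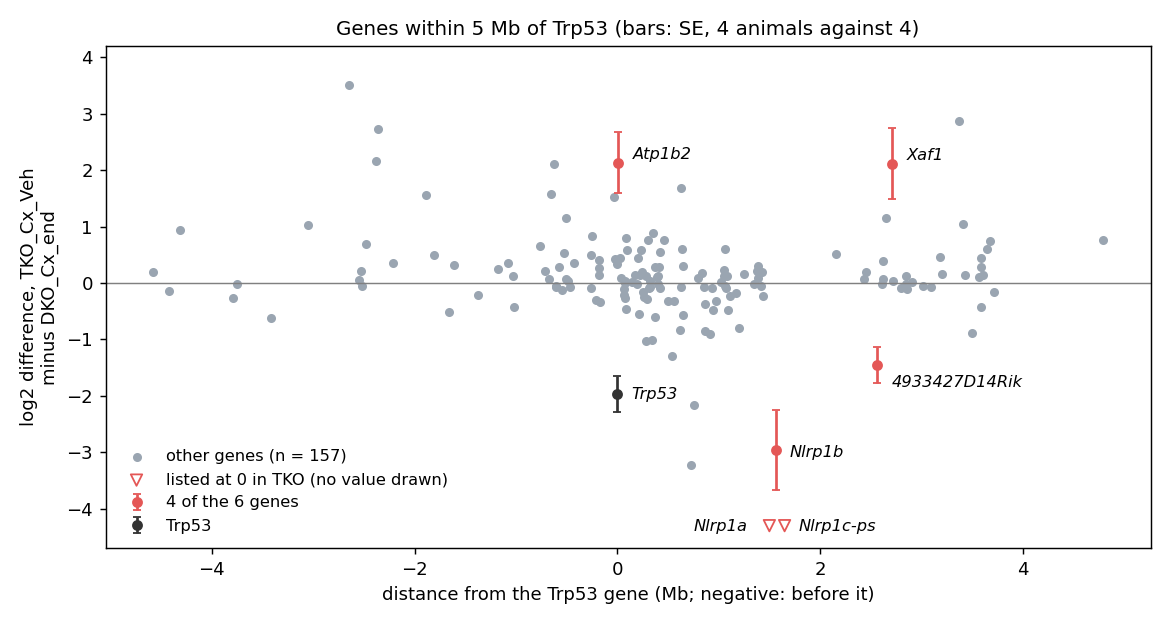
Log2 difference of vehicle-treated TKO minus castrated DKO (vertical axis) by distance from Trp53 in Mb (horizontal axis) for genes within 5 Mb, with SE bars for Trp53 and 4 of the 6 genes. Open triangles mark Nlrp1a and Nlrp1c-ps, listed at 0 in TKO, at an arbitrary height, and 7 other genes at 0 throughout a group are left out. The 164 genes other than the 6 and Trp53 had a median size of difference of 0.27.

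Of a list of p53 targets, part fell in CPI1688-treated TKO. Of the list of 12, all in the table, 4 fell and 0 rose in CPI1688-treated TKO against castrated DKO_EE, with a median of -0.90 beside 0.02 over all genes and 6.63% of all genes called. They were the cyclin gene Ccng1 (-1.55, SE 0.32, adjusted p = 0.00845), Zmat3, an RNA-binding protein gene (-1.41, SE 0.27, adjusted p = 0.00596), the nuclease gene Aen (-1.37, SE 0.29, adjusted p = 0.00994) and the pro-apoptotic gene Bax (-0.92, SE 0.17, adjusted p = 0.00423). Against castrated DKO_EP 1 fell, Ccng1 (-1.35, SE 0.32, adjusted p = 0.0385), with a median of -0.83 and 1.98% of all genes called. Trp53 itself fell in both, by -1.55 against DKO_EE (SE 0.31, adjusted p = 0.00699) and by -1.67 against DKO_EP (SE 0.31, adjusted p = 0.0139). Against castrated DKO, 2 of the list fell with CPI1688, Ccng1 and Aen (median -1.33, 1.36% of all genes called). In vehicle-treated TKO against castrated DKO 0 of the list passed, with a median of -0.94 and 0.168% of all genes called.

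Nlrp1a and 4933427D14Rik were lower in castrated than in intact tumours. For Nlrp1a the log2 difference, castrated minus intact endstage, was -4.35 in DKO (SE 0.46, adjusted p = 9.64e-10), -5.72 in DKO_EE (SE 0.35, adjusted p = 2.81e-17) and -5.19 in DKO_EP (SE 0.44, adjusted p = 2.11e-12). For 4933427D14Rik it was -3.52 in DKO (SE 0.23, adjusted p = 6.75e-16), -4.24 in DKO_EE (SE 0.17, adjusted p = 3.07e-23) and -3.86 in DKO_EP (SE 0.22, adjusted p = 6.76e-18). Both genes fell in every genotype, with no overlap between 14 castrated and 26 intact animals, a pattern of lower values that 1.72% of all genes showed. Called were 2 of the 6 genes in DKO (13.9% of all genes), 4 in DKO_EE (16.5%) and 4 in DKO_EP (9.87%).

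Nlrp1b and Nlrp1c-ps passed as lower in castrated DKO_EP and DKO_EE. In DKO_EP the log2 differences were -2.27 for Nlrp1b (SE 0.61, adjusted p = 0.00926) and -2.29 for Nlrp1c-ps (SE 0.50, adjusted p = 0.00105). In DKO_EE Nlrp1b had -1.49 (SE 0.48, adjusted p = 0.0237) and Nlrp1c-ps -1.22 (SE 0.39, adjusted p = 0.025). In DKO, neither -1.66 for Nlrp1b (SE 0.64, adjusted p = 0.0777) nor -0.89 for Nlrp1c-ps (SE 0.53, adjusted p = 0.293) passed, but Nlrp1b passed with an offset of 8 (adjusted p = 0.0157), array weights (0.0121), limma-voom (0.0327) or without castrated animal 2 (0.0301). The castrated DKO animals are among those the choice of genes used. The DKO_EE calls were lost without castrated animal 1 (adjusted p = 0.073 for Nlrp1b and 0.0599 for Nlrp1c-ps) or 2 (0.0911 and 0.0817) and, for Nlrp1c-ps, 4 (0.0831), and the DKO_EP call of Nlrp1b without intact animal 2 (adjusted p = 0.0918). Xaf1 and Atp1b2 did not pass in any genotype, with differences of -0.49 to 0.48 and of 0.49 to 1.01. The difference of the castration effect between DKO_EE or DKO_EP and DKO did not pass for any of the 6 genes, in interaction terms that called 0.0119% and 0.0238% of all genes, and the interaction for Nlrp1a was -1.36 (SE 0.58, adjusted p = 0.451) in DKO_EE and -0.84 (SE 0.64, adjusted p = 0.97) in DKO_EP.

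Genes that every tissue uses also separated castrated from intact animals, which bears on these values. The ribosomal protein genes Rps27 and Rpl26 had mean log2 values of 9.89 and 10.07 in castrated and of 2.83 and 3.06 in intact animals. Zfp91 had 0.49 and 10.63, Jund 0.27 and 8.91, and Atp5o 0 and 9.68. In all, 288 genes were lower and 196 higher in castrated animals with no overlap, and of 79 ribosomal protein genes 6 were lower and 4 higher. TKO animals had the castrated levels of these genes, and 0 of the 79 separated TKO from the other castrated animals. These genes were picked after their values were seen. Castration and any difference in how the castrated and intact libraries were made or quantified cannot be told apart. The castrated minus intact values of all 6 genes, those of Nlrp1b and Nlrp1c-ps included, carry that limit.

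**Figure D4:**
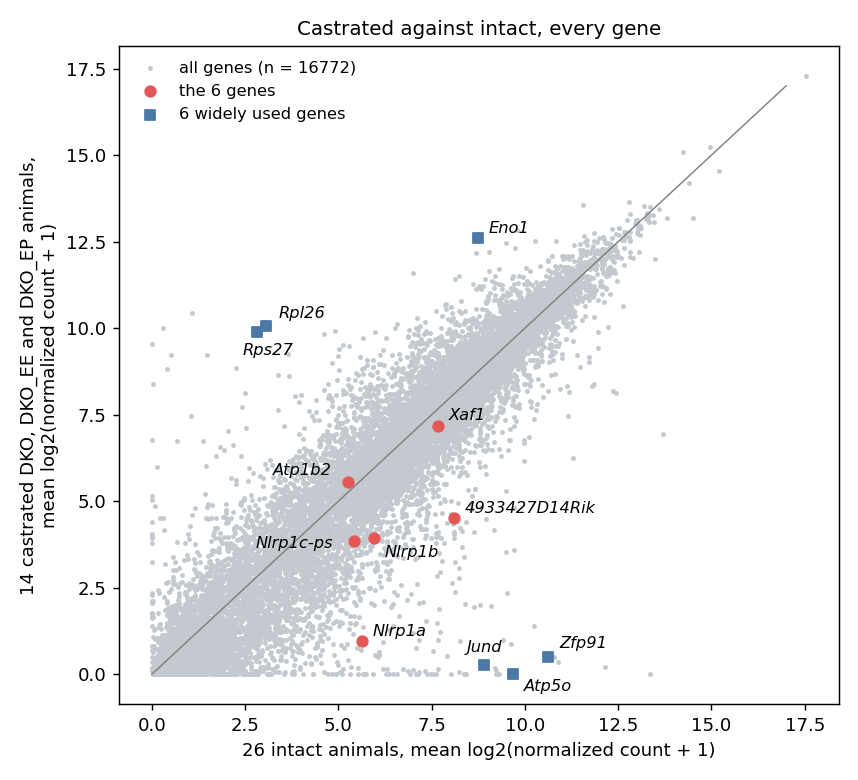
Mean log2(normalized count + 1) of every gene in 26 intact animals (horizontal axis) and in 14 castrated DKO, DKO_EE and DKO_EP animals (vertical axis), with a line of equal values, the 6 genes as circles and 6 widely used genes as squares. Nlrp1a (5.64 intact, 0.95 castrated) and 4933427D14Rik (8.10 and 4.51) lie far under the line on the side of Zfp91, Jund and Atp5o, and Rps27, Rpl26 and Eno1 (8.75 and 12.61) far above it.

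From 12 weeks to intact endstage Nlrp1a rose in DKO (log2 difference 1.35, SE 0.46, adjusted p = 0.0201) and DKO_EE (1.31, SE 0.37, adjusted p = 0.00352) and was at 0.77 in DKO_EP (SE 0.46, adjusted p = 0.177), which did not pass. 4933427D14Rik rose in DKO_EE (0.74, SE 0.18, adjusted p = 0.00107) and DKO_EP (0.81, SE 0.23, adjusted p = 0.00424). Nlrp1b and Nlrp1c-ps fell in DKO_EE alone among the calls, Nlrp1b by -1.39 (SE 0.51, adjusted p = 0.0221) and Nlrp1c-ps by -1.52 (SE 0.42, adjusted p = 0.00296), and whether the genotypes differ in this was not tested. Atp1b2 fell in DKO by -1.61 (SE 0.56, adjusted p = 0.0227). Skeletal muscle markers (4 genes) had summed levels of 13.27 to 17.78 in 12-week DKO and 7.35 to 10.91 in endstage DKO. Libraries in which the muscle gene Ttn took over 1% of reads were then left out, a limit chosen after seeing the data. The Atp1b2 difference was -1.89 in DKO (SE 0.62, adjusted p = 0.0222, limma), where the kept 12-week libraries had 0.113% and 0.183% Ttn. In DKO_EP it was -0.7 with all libraries and 0.35 (SE 0.62) under that limit. In 12-week DKO_EP, Atp1b2 was at 6.52 and 6.74 in the animals with 2.282% and 2.527% Ttn and at 4.03 and 5.03 in those with 0.001%. The part of muscle tissue in the Atp1b2 values was not tested. Called were 2 of the 6 in DKO (36.7% of all genes), 4 in DKO_EE (50.6%) and 1 in DKO_EP (44.2%). In DKO and DKO_EP the share of the 6 was thus not above the background. The DKO calls were lost without single animals, for Nlrp1a without endstage animal 1 (adjusted p = 0.112) or 2 (0.0788) or 12-week animal 3 (0.0915), and for Atp1b2 without any of 5 of 7 animals, at adjusted p of up to 0.0938 (without endstage animal 2). The Nlrp1b call in DKO_EE was lost without 12-week animal 1 (adjusted p = 0.0778). Macrophage markers had summed levels of 10.29 to 12.20 in endstage DKO_EE and 11.68 to 13.57 in 12-week DKO_EE, and T and NK cell markers of 0 to 5.77 and 5.90 to 7.3, and their part in the lower Nlrp1b and Nlrp1c-ps values was not tested.

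Over the same interval the inflammasome list had 17 of 24 members lower and 0 higher in DKO_EE (median -1.84 beside -0.07 over all genes), 11 lower and 1 higher in DKO_EP (median -1.44) and 7 lower and 0 higher in DKO (median -0.58), beside 50.6%, 44.2% and 36.7% of all genes called in either direction. All of these are counts of calls by limma. Of the interferon list 24, 17 and 16 of 29 fell in DKO_EE, DKO_EP and DKO, and 0 rose. Xaf1 had log2 differences of -0.72 (adjusted p = 0.167), -1.08 (adjusted p = 0.101) and -1.10 (adjusted p = 0.111) in that order, SE 0.44, 0.54 and 0.54, and did not pass.

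DKO_EE and DKO_EP were compared with DKO in each setting. At 12 weeks none passed in DKO_EE or DKO_EP against DKO, and 0% of all genes were called in either, with 796 and 449 at an unadjusted p under 0.05. The log2 differences of the 6 genes ran from -0.62 for Atp1b2 (SE 0.55) to 0.79 for Xaf1 (SE 0.35) in DKO_EE and from -0.54 for Nlrp1c-ps (SE 0.37) to 0.29 for Xaf1 (SE 0.35) in DKO_EP. At intact endstage DKO_EP against DKO had 0% called as well, with 965 at an unadjusted p under 0.05, and the differences ran from -0.57 for Nlrp1a (SE 0.55) to 0.42 for Atp1b2 (SE 0.49). In DKO_EE the values of Nlrp1b (-1.22, SE 0.51, adjusted p = 0.241) and Nlrp1c-ps (-1.37, SE 0.61, adjusted p = 0.275) did not pass at that stage.

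The identifier letters of TKO animals also occur in 3 of the 4 DKO animals of 12 weeks, which are intact. In these 3 animals Nlrp1c-ps was at 5.94, 6.32 and 5.37, Nlrp1a at 5.05, 5.18 and 3.98 and Nlrp1b at 6.87, 6.61 and 6.21. No copy was at 0 in them or in any other intact animal. The lowest intact values were 3.98 for Nlrp1a, 3.28 for Nlrp1b and 2.58 for Nlrp1c-ps. No castrated animal other than TKO has these letters, so the comparison cannot address the zeros in TKO. The 3 animals were compared with the 9 other 12-week animals (1 DKO, 4 DKO_EE and 4 DKO_EP), whose identifiers begin with DKOE. That fit had no genotype term, so the letters and the Ezh2 deletion are mixed. None of the 6 genes passed, with 0.0541% of all genes called. The values were 0.09 for Nlrp1c-ps (SE 0.38, adjusted p = 0.974), -0.30 for Nlrp1a (SE 0.35, adjusted p = 0.924), 0.26 for Nlrp1b (SE 0.32, adjusted p = 0.931), 0.86 for Atp1b2 (SE 0.47, adjusted p = 0.86), -0.61 for Xaf1 (SE 0.34, adjusted p = 0.86) and 0.08 for 4933427D14Rik (SE 0.14, adjusted p = 0.944). With genotype in the fit, where the letters rest on 1 DKO animal, none of the 6 passed either, at -0.27 for Nlrp1c-ps (SE 0.62, adjusted p = 1). At intact endstage the letters ET against DKOE, with genotype in the fit, called 0.00601% of all genes and none of the 6. The letters are a label and no stated strain, and the genotype of the region around Trp53 was not analysed here.

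Pieces from the same animal give the spread within a prostate. Over 6 intact endstage animals with 2 libraries each, the size of the log2 difference between pieces had medians of 1.24 for Nlrp1a, 0.60 for Nlrp1b, 0.75 for Nlrp1c-ps, 0.78 for Xaf1, 0.46 for Atp1b2 and 0.22 for 4933427D14Rik. In DKO_EE animal 7 the pieces labelled DP and LP had 4.62 and 1.93 for Nlrp1b and 3.63 and 1.52 for Nlrp1c-ps. In DKO_EP animal 2 the pieces DP and AP had 5.04 and 7.05 for Nlrp1a, 5.64 and 7.35 for Nlrp1b and 5.30 and 7.15 for Nlrp1c-ps. All 3 copies were thus higher in AP of that animal, and no piece had a copy at 0.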

How the data were processed

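RNA-seq of mouse prostate tumour tissue was analysed from the authors' deposited table of 16772 genes, whose values are log2 of a normalized count plus 1. Tools named per the submitters' processing notes are STAR, RSEM, DESeq2, limma and FastQC, and the builds named are mm10 and GRCm38; what each did, and its version, are not given in the sources used here. Every value, once unlogged, was within 0.05 of a whole multiple of 1 step per library (100% of values), which gave the reads quoted; they may be rounded estimates, and 8.92% of values were 0. The table has 56 columns, of which 2 match no sample here and were not used. Libraries with the same animal identifier (6 animals with 2 each) were averaged to 48 animals, the replicates of every test.

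Groups were compared with limma 3.58.1 (R 4.3.3; trended eBayes) on log2 values. Genes with an adjusted p (Benjamini-Hochberg over all genes with spread) under 0.05 were called. Castrated, 12-week and intact endstage animals had a fit each; comparisons between them used all 11 groups. Named were the 6 genes, Trp53, their neighbours in the table, up to 10 further genes within 5 Mb with the smallest adjusted p in the contrast that chose the 6, the 3 most alike genes each, and up to 4 members of a list. Likeness was computed without the 25% of genes with the lowest means. The genes, lists and tests were chosen with earlier results of these data known. Positions came from GENCODE M21 (99.7% of symbols matched). Fold changes of low genes are understated by the offset of 1. SKO mice were not analysed here. Some genes of the lists are not reported here.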

Additional observations from a re-analysis of the deposited data

Results flagged for a closer look

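In 50 checks of a gene in a group of 4 to 10 animals, 2 had a lowest animal far from the others, and chance flags about 1 in 20. Nlrp1a in 12-week DKO animal 3 was at a log2 value of 3.98, with the other 3 animals at 5.05 to 5.26. Atp1b2 in 12-week DKO animal 4 was at 5.26, with the others at 6.33 to 6.35. Animal 4 is the 1 of these DKO animals whose identifier begins with DKOE and not with T. The part of the identifier series was not tested in that group, which has 1 such animal.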

How the results depend on the processing

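Of 1884 single-gene values under the alternatives, 1801 kept their direction and side of the threshold or were uncalled in both, 43 came to pass and 40 no longer passed; none reversed while called, and 80 uncalled values changed sign. Leaving out the lowest 25% of genes, which drops Nlrp1a and Nlrp1c-ps, took the count of called genes among the 6 from 1 to 0 (vehicle-treated TKO against castrated DKO), 3 to 1 (CPI1688 against DKO), 1 to 0 (against DKO_EE), 2 to 1 (against DKO_EP), 1 to 0 (castrated DKO_EE against DKO), 2 to 1 (DKO, castrated against intact, and endstage against 12 weeks) and 4 to 2 (DKO_EE, both, and DKO_EP, castrated against intact). For the other settings the cause was not tested. For vehicle-treated TKO against castrated DKO the count was 2 with an offset of 8, quantile normalization or limma-voom on recovered reads, 5 with array weights and 6 with all 11 groups in one fit. These calls use the values that chose the genes, as do those of CPI1688 against DKO, and nothing is read from them. All 11 groups gave 6, 3 and 4 for CPI1688 against DKO, DKO_EE and DKO_EP. The share of all genes called under each alternative is not given here. None of the counts in this section is therefore read as a result about the 6. Age as a covariate gave 1, 1 and 0 for CPI1688 against DKO, CPI1688 against DKO_EP and castrated DKO_EE against DKO, and voom gave 1 for CPI1688 against DKO_EP. Array weights gave 2 for CPI1688 against DKO_EE, 1 for intact endstage DKO_EE against DKO, 2 and 1 for castrated DKO_EE and DKO_EP against DKO, and 4 for DKO_EP endstage against 12 weeks. With only the compared groups in the fit, endstage against 12 weeks gave 4 in DKO and 2 in DKO_EP. DKO_EE castrated against intact gave 2 with voom and 2 with libraries under 10% Lars2. Leaving out 1 animal gave 1 to 2 for vehicle against DKO, 1 to 3 and 1 to 2 for CPI1688 against DKO and DKO_EP, 0 to 2 for DKO endstage against 12 weeks and 2 to 4 for DKO_EE castrated against intact. The limits on Lars2 and on Ttn were chosen after seeing the data, and the Lars2 limit left no DKO_EP intact library, so 4 comparisons have no value there. No paired analysis was possible because the labels give no replicate numbers shared between groups. Read counts under about 10 in TKO limit Nlrp1a and Nlrp1b.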
